A study of Mus musculus with 12 samples.

Results

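The angiogenic factors made by neutrophils were followed in RNA-seq libraries through 8 of the 55335 genes listed for each library. They were taken by gene symbol and comprise the VEGF family ligands Vegfa, Vegfb, Vegfc and Pgf, the prokineticin Prok2, the growth factors Hbegf and Pdgfb, and the VEGF receptor Flt1. The libraries came from 3 groups of 4 mice of the FVB background, all 10 weeks old and housed in a SOPF facility. PyMT mice carry the polyoma middle T oncogene and develop mammary tumors, and their tumor-associated neutrophils (TANs) form the first group. TANs of PyMT-Cxcr2-/- mice, which carry the same transgene and constitutively lack the chemokine receptor Cxcr2, form the second group. Neutrophils from the bone marrow (BM) of WT mice, with neither the transgene nor the deletion, form the third group. Tissue and genotype thus both differ between TANs and BM neutrophils, and since there was no tumor-free Cxcr2-/- group, an effect of the deletion outside the tumor cannot be told apart from one within it. The cells were enriched on CD11b and sorted as CD45+ CD11b+ Ly6G+ F4/80-, and each library is 1 mouse. The question was whether transcripts for angiogenic factors differ between the TANs and BM neutrophils, and between TANs with and without Cxcr2.

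Neutrophils take part in the formation of new vessels in tumors by releasing growth factors and matrix-degrading enzymes. VEGF-A acts on endothelial cells mainly through Kdr, while VEGF-B and placental growth factor (Pgf) bind Flt1, which also acts as a decoy for VEGF-A, and VEGF-C acts on lymphatic vessels through Flt4. Prok2, also called Bv8, is a secreted peptide known from myeloid cells, where G-CSF induces it through Stat3, and it acts through the receptors Prokr1 and Prokr2. Hbegf is a membrane-bound ligand of the EGF receptor family that is released by sheddases, and Pdgfb is the B chain of PDGF, which attracts the pericytes that cover new vessels.

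The sequences just upstream of the start are shown for the ligand that differed between both types of TANs (Prok2), for the most abundant VEGF ligand (Vegfa) and for Vegfb. Each is the 250 bases before a RefSeq start on GRCm38.p6 (for Vegfa, the more upstream of its 2 starts), on the strand of the gene from 5′ to 3′, and all 3 genes lie on the minus strand. Capitals mark the letters ACGTG and GCGTG (cores of hypoxia response elements), TGANTCA (AP-1), TTCNNNGAA (STAT), GGGCGG (GC box) and TATAAA, each searched on both strands.
Prok2, chr6:99726393-99726642: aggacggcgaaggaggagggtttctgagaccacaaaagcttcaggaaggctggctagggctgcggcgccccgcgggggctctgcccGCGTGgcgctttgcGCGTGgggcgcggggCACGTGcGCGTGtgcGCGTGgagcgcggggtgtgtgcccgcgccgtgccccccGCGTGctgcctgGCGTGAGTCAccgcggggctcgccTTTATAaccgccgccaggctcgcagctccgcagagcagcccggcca
Vegfa, chr17:46032378-46032627: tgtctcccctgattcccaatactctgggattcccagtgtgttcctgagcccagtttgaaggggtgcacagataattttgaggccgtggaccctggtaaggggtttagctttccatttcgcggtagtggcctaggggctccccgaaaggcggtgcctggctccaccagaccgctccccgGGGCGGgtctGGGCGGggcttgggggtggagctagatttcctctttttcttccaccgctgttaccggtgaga
Vegfb, chr19:6987652-6987901: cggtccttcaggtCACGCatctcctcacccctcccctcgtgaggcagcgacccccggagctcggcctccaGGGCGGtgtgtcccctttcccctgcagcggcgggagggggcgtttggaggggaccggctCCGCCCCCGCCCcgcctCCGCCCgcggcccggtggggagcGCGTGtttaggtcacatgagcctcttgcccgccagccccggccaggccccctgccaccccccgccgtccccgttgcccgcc
The Prok2 window held GCGTG at 6 places and ACGTG at 2, the latter being both strands of 1 CACGTG, with 1 TGANTCA that overlaps the last GCGTG and 1 TATAAA. In the Vegfa window GGGCGG was found 2 times and none of the other motifs, whereas the window of the second Vegfa start, which lies inside the gene (chr17:46025164-46025413, not printed), held 1 ACGTG along with 1 GCGTG as well as 1 GGGCGG. The Vegfb window held GGGCGG 4 times and GCGTG 2 times. Of 32851 windows of the same length, 28.2% held GCGTG, 16.6% ACGTG, 6.75% TGANTCA, 7.02% TTCNNNGAA, 32.7% GGGCGG and 12.4% TATAAA, so only the AP-1 letters of the Prok2 window belong to a motif found in fewer than 1 window in 10. These matches describe letters and are not binding sites.

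Cxcr2 was at 1197 ± 223.5 CPM in PyMT TANs, 9.38 ± 0.576 in PyMT-Cxcr2-/- TANs, with 2035 ± 195 in BM neutrophils (SD, n = 4) (log2 fold change -6.998 between the TANs, SE 0.19, edgeR adjusted p = 5.2e-09), which matches the labels. CPM here are counts scaled to library size with TMM factors over the 12 libraries. The libraries held between 25032704 and 51351569 counts on genes, so that 3 counts, taken as the floor, correspond to 0.0584 to 0.12 CPM. Some PyMT libraries stood apart from the rest. Of genes with 1 to 20 counts, an even count was found for 65.0% to 74.2% in 10 libraries, but for 56.3% in PyMT replicate 3 and 48.2% in PyMT replicate 4. PyMT replicates 2 and 3 listed 20136 and 18552 genes with a count, against 21620 to 25975 in the other libraries. What lies behind these differences was not tested, and results that rest on 1 PyMT mouse are given with and without it. Cells were checked by lists of marker genes. The summed neutrophil markers (10 genes, with S100a8, S100a9, Ly6g and Csf3r) reached 10600 to 16863 CPM in PyMT TANs, at 18909 to 32231 in PyMT-Cxcr2-/- TANs, with 90797 to 124597 in BM neutrophils. Those of macrophages and monocytes (12 genes) reached 2195 to 5387, 2394 to 5031 and 223.1 to 318.7 CPM, and those of mammary epithelium (10 genes) 49.2 to 472.5, 87.2 to 330.8 and 0.12 to 0.516 CPM. By the edgeR test and thresholds given below, 9 of the 10 neutrophil markers were lower in either type of TANs than in BM. Of all genes tested, 53.3% and 59.5% were past these thresholds. Csf3r was not past them, at 3771 ± 751.4, 4774 ± 654.8 and 3956 ± 245.8 CPM in PyMT TANs, PyMT-Cxcr2-/- TANs and BM. S100a8 and S100a9 made up much of the sum, with 28298 ± 2715 and 35193 ± 6521 CPM in BM. In bulk RNA, fewer cells of a type, less RNA per cell and lower expression of the markers themselves cannot be told apart.

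**Figure D1:**
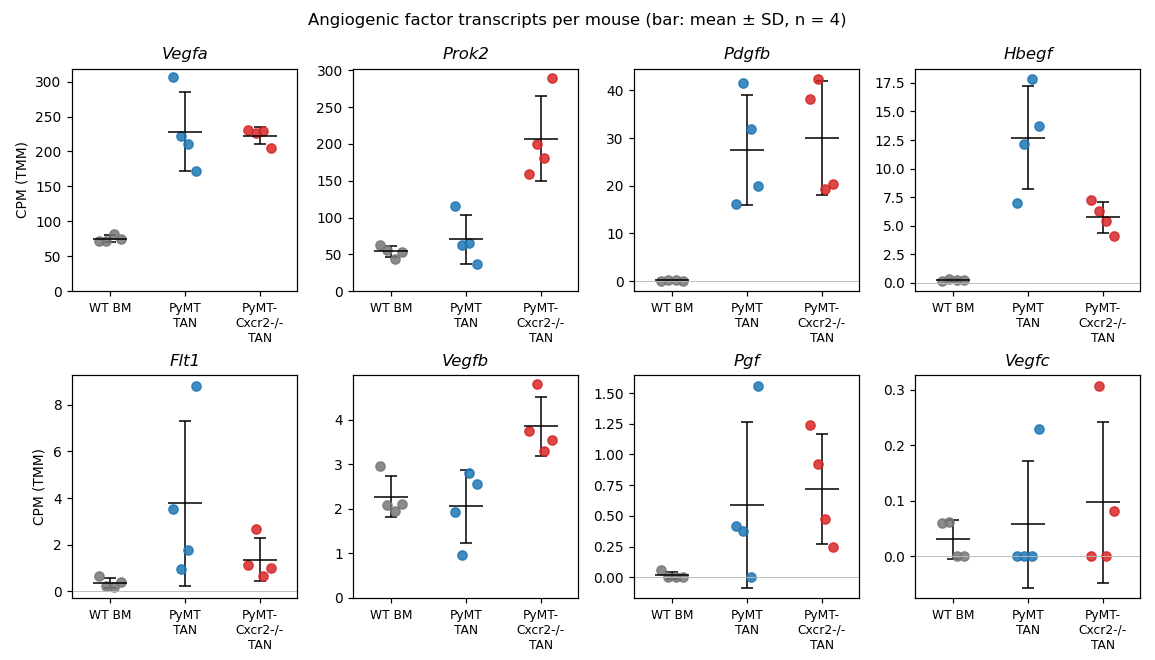
CPM with TMM factors (y axis) of the 8 genes in WT BM neutrophils, PyMT TANs and PyMT-Cxcr2-/- TANs, with 1 point per mouse, replicates 1 to 4 from left to right, and the mean ± SD as bars. Vegfa, Pdgfb and Hbegf lie higher in both types of TANs than in BM, while Prok2 is highest in the 4 PyMT-Cxcr2-/- libraries.

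Compared per kilobase of exon, Vegfa and Prok2 were the 2 most abundant of these transcripts in every group, and their order changed. In PyMT TANs Vegfa came first with 53.2 ± 13.3 CPM per kilobase, followed by Prok2 with 36.6 ± 17.3, and the ranges of both overlapped. In PyMT-Cxcr2-/- TANs Prok2 came first with 108.2 ± 30.0, above Vegfa with 51.9 ± 2.80, without overlap. In BM neutrophils Prok2 was also first, with 28.1 ± 4.02 against 17.5 ± 1.14 for Vegfa. Among 21899 protein-coding genes ordered by CPM per kilobase, Vegfa stood at percentile 97.3, 96.8 and 89.2 in PyMT TANs, PyMT-Cxcr2-/- TANs and BM neutrophils, and Prok2 at percentile 96.0, 98.5 and 92.9. Pdgfb was the third in both types of TANs, with 6.59 ± 2.77 and 7.23 ± 2.87 CPM per kilobase. Hbegf came before Vegfb in PyMT TANs (2.62 ± 0.930 and 1.28 ± 0.511, with overlap) and after it in PyMT-Cxcr2-/- TANs (1.19 ± 0.276 and 2.40 ± 0.411, without overlap). Flt1, Pgf and Vegfc were at no more than 0.28 CPM per kilobase on average in any group, and in BM neutrophils the ranges of neighbours below Vegfb overlapped.

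Vegfa (ENSMUSG00000023951.17, chromosome 17, 46016993 to 46032369, minus strand, GRCm38) was about 3 times as abundant in both types of TANs as in BM neutrophils and did not separate the TANs. It was at 306.9, 222.6, 211.3 and 171.9 CPM in the 4 PyMT TAN libraries, at 230.5, 225.8, 228.8 and 204.7 in PyMT-Cxcr2-/- TANs, and at 71.5, 72.3, 82.1 and 74.0 in BM neutrophils. Each TAN library lay above each BM library, and the PyMT-Cxcr2-/- values lay within the range of the PyMT values. By the quasi-likelihood test of edgeR, adjusted after Benjamini and Hochberg over all genes, Vegfa rose by 1.67 on the log2 scale in PyMT TANs against BM (SE 0.16, 3.18-fold, adjusted p = 7.0e-06) and by 1.70 in PyMT-Cxcr2-/- TANs (SE 0.10, 3.26-fold, adjusted p = 9.8e-09). Between both types of TANs the log2 difference was -0.04 (95% interval -0.41 to 0.33, adjusted p = 0.96 by the same test). PyMT replicate 1, the highest library, had the lowest macrophage sum of all TANs (2195 CPM), and without it the difference between the TANs was 0.18 with an adjusted p of 0.59 by edgeR.

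Of the other VEGF ligands, Vegfb (ENSMUSG00000024962.13, chromosome 19, 6982473 to 6987651, minus strand), which is known from tissues that burn fatty acids, was scarce. It was at 1.92, 0.961, 2.80 and 2.56 CPM in PyMT TANs, at 3.75, 4.80, 3.30 and 3.53 in PyMT-Cxcr2-/- TANs, and at 2.97, 2.07, 1.95 and 2.10 in BM neutrophils. The 4 PyMT-Cxcr2-/- libraries lay above all others, while PyMT and BM libraries overlapped. Between the TANs the log2 difference was 0.90 (SE 0.38, 95% interval 0.06 to 1.74), which did not pass after adjustment (edgeR, adjusted p = 0.29, and 0.11 to 0.85 over the alternatives). Against BM, Vegfb rose by 0.89 on the log2 scale in PyMT-Cxcr2-/- TANs (SE 0.24, edgeR adjusted p = 0.0040), a call that was lost with the 12 libraries in one fit (adjusted p = 0.076) and after adjusting for GC content and gene length (0.36 on the log2 scale, adjusted p = 0.16). In PyMT TANs its log2 difference from BM was -0.07 (95% interval -1.004 to 0.86, edgeR adjusted p = 0.89). As a share of the VEGF ligands per kilobase (Vegfa, Vegfb, Vegfc, Vegfd and Pgf), Vegfa made up 94.7% to 98.6% in PyMT TANs, at 93.9% to 96.0% in PyMT-Cxcr2-/- TANs, with 89.7% to 94.0% in BM neutrophils.

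Pgf and Vegfc were near the limit of detection. Pgf (ENSMUSG00000004791.7, chromosome 12, 85166635 to 85177790, minus strand) had 20, 14, 0 and 75 counts in PyMT TANs, 66, 36, 23 and 12 in PyMT-Cxcr2-/- TANs, and 2, 0, 0 and 0 in BM neutrophils. Over the summed counts, Pgf was 64.9 times as frequent in PyMT TANs as in BM neutrophils (95% exact interval 17.6 to 543.1) and 61.1 times in PyMT-Cxcr2-/- TANs (16.6 to 509.9), with 2 BM counts in all, both in BM replicate 1. Of the 109 counts in PyMT TANs 75 came from replicate 4, and without it the ratio was 28.2 (7.23 to 242.2). These intervals cover counting error only and would be too narrow if both mates of a read pair were counted, as the excess of even counts allows. Pgf was not tested in PyMT TANs against BM because it missed the filter on low counts. In PyMT-Cxcr2-/- TANs against BM it passed the filter only through the TANs, with a log2 fold change of 5.48 (SE 0.92, edgeR adjusted p = 0.00013). Between the TANs the log2 difference was 0.28 with a wide interval (-2.04 to 2.60, edgeR adjusted p = 0.96), and 1.41 without PyMT replicate 4. Vegfc (ENSMUSG00000031520.6, chromosome 8, 54077606 to 54187096, plus strand) had 0, 0, 0 and 11 counts in PyMT TANs, 0, 12, 0 and 4 in PyMT-Cxcr2-/- TANs, and 2, 2, 0 and 0 in BM neutrophils. A count of 0 allows a level of up to 0.0584 to 0.12 CPM at these depths, and Vegfc missed the filter on low counts in each comparison. Over the summed counts it was 3.28 times as frequent in PyMT TANs as in BM neutrophils (95% exact interval 0.971 to 14.1) and 3.57 times in PyMT-Cxcr2-/- TANs (1.15 to 14.7). These ratios rested on single libraries, since without PyMT replicate 4 no count was left in PyMT TANs and without PyMT-Cxcr2-/- replicate 2 the second ratio was 1.11 (0.206 to 5.93), while without BM replicate 2 they were 5.01 and 5.46.

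Prok2 (ENSMUSG00000030069.15, chromosome 6, 99711299 to 99726392, minus strand) differed between the TANs. It was at 116.1, 62.4, 65.1 and 36.9 CPM in PyMT TANs, at 158.7, 199.5, 181.1 and 289.9 in PyMT-Cxcr2-/- TANs, and at 62.4, 55.8, 43.8 and 53.6 in BM neutrophils. Every PyMT-Cxcr2-/- library lay above every PyMT and BM library, while the PyMT TANs overlapped the BM neutrophils. Prok2 was 2.95-fold higher in PyMT-Cxcr2-/- than in PyMT TANs (log2 fold change 1.56, SE 0.31, 95% interval 0.88 to 2.24, edgeR adjusted p = 0.029). It was the only 1 of the 7 tested factors that was past the thresholds (an adjusted p below 0.05 together with a 1.5-fold difference) in this comparison, in which 1.98% of 18463 genes were and 1.38% were higher. Together with Vegfb, 2 of the 7 showed no overlap between the TANs, against 12% of all genes tested. Against BM neutrophils it rose by 2.08 on the log2 scale in PyMT-Cxcr2-/- TANs (SE 0.17, 4.22-fold, edgeR adjusted p = 2.6e-07). In PyMT TANs the log2 difference from BM was 0.44 (95% interval -0.16 to 1.04, edgeR adjusted p = 0.19), and without PyMT replicate 4, the lowest library, it was 0.65 and passed (edgeR adjusted p = 0.031).

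The size of the Prok2 difference between the TANs was stable, but its call was not. The log2 fold change stayed between 1.35 and 1.96 over the 17 alternative fits, and the adjusted p between 0.00010 and 0.36, with 9 of them above 0.05. It was 0.10 without the filter on low counts, 0.11 after adjusting for GC content and gene length, and between 0.060 and 0.11 without PyMT-Cxcr2-/- replicate 2, 3 or 4 or without PyMT replicate 2 or 3 (all by edgeR). Prok2 also moved with the neutrophil markers, 6 of which were past the thresholds as higher in PyMT-Cxcr2-/- TANs (against 1.38% of all genes), with Cxcr2 itself lower and a median log2 difference of 1.11 over the 10, against -0.07 over all genes tested. Per 1000 CPM of the 9 neutrophil markers other than Cxcr2, Prok2 was at 7.57, 5.80, 5.35 and 3.86 CPM in PyMT TANs and at 7.90, 10.6, 8.08 and 8.998 in PyMT-Cxcr2-/- TANs. The groups did not overlap on this scale either, but were close at PyMT replicate 1, and the difference was 0.69 on the log2 scale in place of 1.56 (two-sided exact permutation test, p = 0.029, the smallest that 4 against 4 libraries can give, and 0.057 after adjustment over 4 such ratios). In BM neutrophils Prok2 was at 0.474 to 0.588 CPM per 1000 CPM of these markers, below every TAN library. The 9 markers summed to 88974 to 122345 CPM in BM and to 9556 to 32222 CPM in TANs. For PyMT TANs, whose Prok2 CPM overlapped BM, this gap thus came from the markers. The ratio was chosen after the levels had been seen, and S100a8 and S100a9 weigh heavily in it. They were at 3531 ± 752.7 and 2645 ± 655.8 CPM in PyMT TANs and at 6985 ± 1894 and 5456 ± 1529 in PyMT-Cxcr2-/- TANs. Csf3r, another of the 9 markers, differed by 0.34 on the log2 scale between the TANs (edgeR adjusted p = 0.41). Prok2 lies across the gene Gm26748 on the opposite strand without shared exons.

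**Figure D2:**
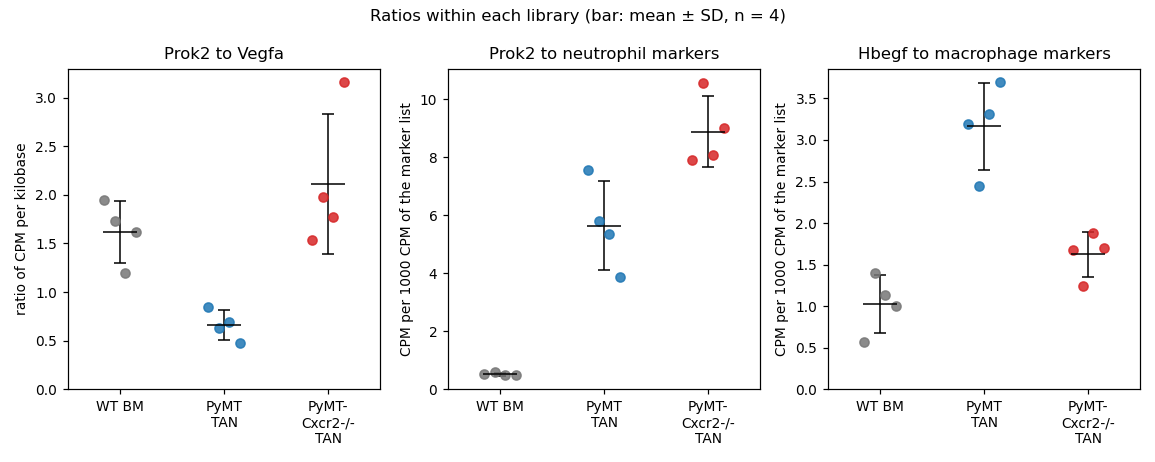
Ratios within each library for the 3 groups, with 1 point per mouse and the mean ± SD as bars. Prok2 relative to Vegfa per kilobase (left) is lowest in PyMT TANs, Prok2 per 1000 CPM of 9 neutrophil markers (middle) is higher in PyMT-Cxcr2-/- than in PyMT TANs without overlap, and Hbegf per 1000 CPM of 12 macrophage and monocyte markers (right) is highest in PyMT TANs.

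Set against Vegfa in the same library, Prok2 was at 0.479 to 0.846 times the Vegfa level per kilobase in PyMT TANs, at 1.54 to 3.17 times in PyMT-Cxcr2-/- TANs, with 1.19 to 1.95 times in BM neutrophils. The PyMT TANs thus lay below both other groups, which overlapped each other. This ratio does not depend on the scaling between libraries.

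Hbegf (ENSMUSG00000024486.6, chromosome 18, 36504927 to 36515805, minus strand) was nearly absent from BM neutrophils and ran opposite to Prok2 in the TANs. It was at 6.995, 12.1, 17.9 and 13.8 CPM in PyMT TANs, at 7.22, 6.26, 5.41 and 4.07 in PyMT-Cxcr2-/- TANs, and at 0.18, 0.371, 0.287 and 0.224 in BM neutrophils. All TAN libraries lay above BM, and of the PyMT libraries only replicate 1 overlapped the PyMT-Cxcr2-/- range. The BM libraries held 6 to 12 Hbegf counts, so the gene passed the filter on low counts mainly through the TANs. Against BM, Hbegf rose by 5.63 on the log2 scale in PyMT TANs (SE 0.40, edgeR adjusted p = 7.0e-07) and by 4.56 in PyMT-Cxcr2-/- TANs (SE 0.32, edgeR adjusted p = 5.0e-08). Between the TANs its log2 difference was -1.15 (SE 0.30, 95% interval -1.80 to -0.49) with an adjusted p of 0.079 by edgeR, which missed the threshold. It passed without PyMT replicate 1 (-1.30 on the log2 scale, edgeR adjusted p = 0.029), with DESeq2 (adjusted p = 0.013), with the 12 libraries in one fit (edgeR adjusted p = 0.033) and without the filter on low counts (edgeR adjusted p = 0.041).

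Within each type of TANs, the library with the fewest macrophage transcripts also had the least Hbegf. Per 1000 CPM of the 12 macrophage and monocyte markers, Hbegf was at 3.19, 2.45, 3.32 and 3.70 CPM in PyMT TANs and at 1.67, 1.24, 1.88 and 1.70 in PyMT-Cxcr2-/- TANs. On this scale PyMT and PyMT-Cxcr2-/- TANs did not overlap, with a log2 difference of -0.96 (two-sided exact permutation test, p = 0.029, and 0.057 after adjustment over the 4 ratios). In BM neutrophils Hbegf was at 0.564 to 1.39 on this scale, which overlapped the PyMT-Cxcr2-/- TANs but not the PyMT TANs. The part of macrophages in the rise of Hbegf over BM was not tested. Expressed against each other per kilobase, Prok2 was at 6.76 to 41.9 times the Hbegf level in PyMT TANs and at 55.5 to 179.8 times in PyMT-Cxcr2-/- TANs, without overlap, and at 379.3 to 875.0 times in BM neutrophils. The separation of the TANs by this ratio largely restates the opposite differences of both genes and is not a further result.

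Pdgfb (ENSMUSG00000000489.7, chromosome 15, 79995874 to 80014977, minus strand) showed the steepest rise from BM neutrophils to TANs of the factors tested in both comparisons with BM. It was at 16.2, 41.5, 31.8 and 20.05 CPM in PyMT TANs and at 38.1, 42.5, 19.4 and 20.3 in PyMT-Cxcr2-/- TANs, while the BM libraries held 2, 10, 6 and 2 counts. Both types of TANs covered the same range, far above BM. With at most 10 counts in a BM library, Pdgfb passed the filter on low counts through the TANs. The log2 fold change against BM was 7.57 in PyMT TANs (SE 0.52, edgeR adjusted p = 5.7e-07) and 7.78 in PyMT-Cxcr2-/- TANs (SE 0.45, edgeR adjusted p = 3.4e-08), and over the summed counts the ratio was 251.6 (95% exact interval 162.7 to 412.4) and 250.2 (161.8 to 409.9). Of the 20 BM counts 10 came from BM replicate 2, without which the ratios were 385.0 and 382.8. Between the TANs it was 0.13 (95% interval -0.60 to 0.86, edgeR adjusted p = 0.93). Pdgfb overlaps Gm41361 and Mir7213 without shared exons.

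Pdgfb followed the macrophage markers from library to library. The summed macrophage and monocyte markers were at 2195, 4953, 5387 and 3716 CPM in PyMT TANs and at 4312, 5031, 2873 and 2394 in PyMT-Cxcr2-/- TANs, so that in each type of TANs the 2 libraries with the most Pdgfb were also those with the most macrophage transcripts. Per 1000 CPM of these markers Pdgfb was at 5.39 to 8.38 CPM in PyMT TANs and at 6.75 to 8.84 in PyMT-Cxcr2-/- TANs, which overlapped (two-sided exact permutation test, p = 0.17). In BM neutrophils it was at 0.188 to 1.16. The part of these cells in the rise of Pdgfb was not tested.

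**Figure D3:**
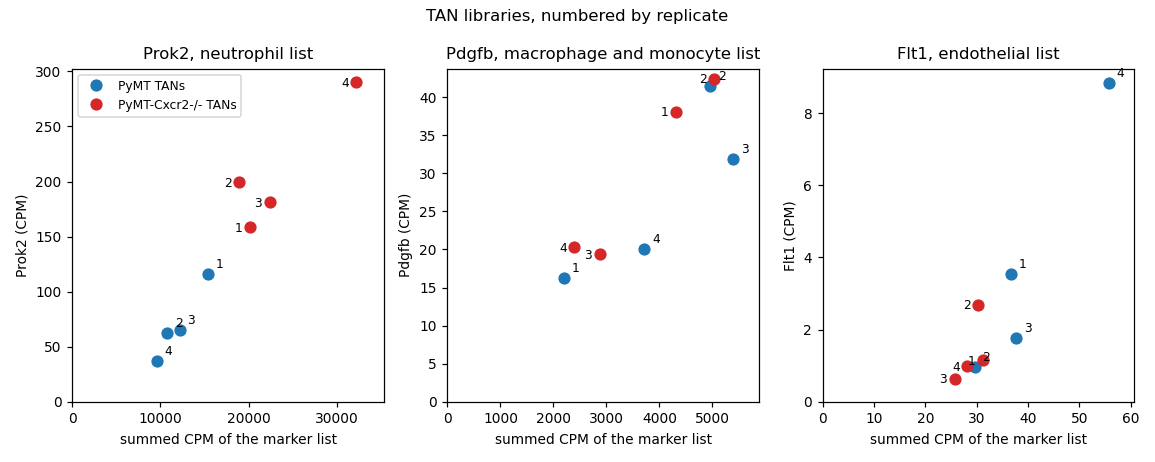
CPM of Prok2, Pdgfb and Flt1 (y axes) against the summed CPM of the neutrophil (9 genes, without Cxcr2), macrophage and monocyte (12 genes) and endothelial (12 genes) marker lists (x axes) in the 8 TAN libraries, numbered by replicate. Prok2 and Pdgfb are high where their list is high, and the highest Flt1 value, 8.83 CPM, is in PyMT replicate 4, which also has the highest endothelial sum, 55.7 CPM.

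Flt1 (ENSMUSG00000029648.13, chromosome 5, 147561604 to 147726011, minus strand), the receptor among these genes and a marker of endothelial cells and of some macrophages, was low and uneven. It was at 3.54, 0.961, 1.77 and 8.83 CPM in PyMT TANs, at 1.15, 2.69, 0.640 and 0.986 in PyMT-Cxcr2-/- TANs, and at 0.660, 0.248, 0.172 and 0.392 in BM neutrophils. PyMT TANs did not overlap BM, while 1 PyMT-Cxcr2-/- library lay within the BM range. The BM libraries held 6 to 22 Flt1 counts, so the gene passed the filter on low counts mainly through the TANs. Flt1 rose by 3.42 on the log2 scale in PyMT TANs (SE 0.75, edgeR adjusted p = 0.0021), and by 2.56 without PyMT replicate 4 (edgeR adjusted p = 0.010). In PyMT-Cxcr2-/- TANs it rose by 2.02 (SE 0.53, edgeR adjusted p = 0.0041), a call that was lost after adjusting for GC content and gene length (1.09 on the log2 scale, edgeR adjusted p = 0.056). Between the TANs the log2 difference was -1.47 (95% interval -2.95 to 0.00, edgeR adjusted p = 0.33), and -0.62 without PyMT replicate 4. That library also held the highest sum of the 12 endothelial markers, at 55.7 CPM against 29.6 to 37.7 in the other PyMT TANs and 25.7 to 31.1 in PyMT-Cxcr2-/- TANs, the most Pgf (75 counts) and the only Vegfc counts of its group. The part of endothelial cells in these values was not tested.

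**Figure D4:**
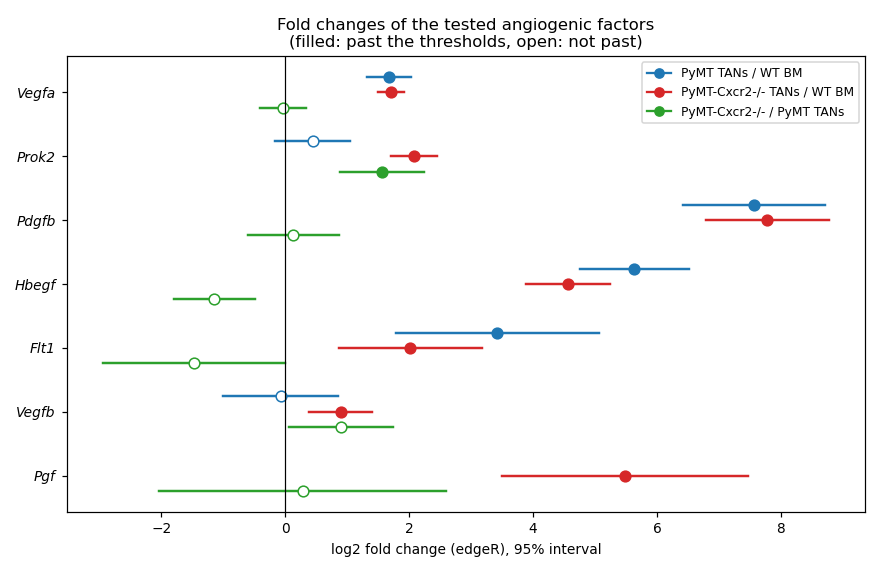
Log2 fold changes with 95% intervals from edgeR (x axis) for the 7 factors that could be tested, in the 3 comparisons, with filled points for those past the thresholds. Between the TANs (green) only Prok2 is filled, at 1.56, whereas Vegfa, Pdgfb, Hbegf and Flt1 are filled in both comparisons with BM.

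Counted together, 4 of the 6 factors tested rose in PyMT TANs against BM neutrophils (Vegfa, Hbegf, Pdgfb and Flt1), where 53.3% of 17153 genes were past the thresholds and 30.1% were higher. In PyMT-Cxcr2-/- TANs the same 4, Prok2 and Vegfb rose, and so did Pgf, which with 2 BM counts could enter the test only by being high in the TANs, where 59.5% of 17732 genes were past the thresholds and 34.4% were higher. Pgf, Pdgfb, Hbegf and Flt1 were at or near the floor in BM neutrophils and entered the tests mainly through the TANs, so these counts describe the factors and do not set them apart from other genes. Both comparisons share the 4 BM libraries.

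Of the other genes of the VEGF and PDGF pathways, none was past the thresholds between the TANs by edgeR. Of the VEGF axis (Vegfd, Kdr, Flt4, Nrp1 and Nrp2) 4 genes and of the PDGF axis (Pdgfa, Pdgfc, Pdgfd, Pdgfra and Pdgfrb) 4 genes were tested, and the median log2 differences were -0.01 and 0.64, against -0.07 over all genes. The PDGF median lay between Pdgfc and Pdgfa on the lower side and the receptors Pdgfrb (1.05, edgeR adjusted p = 0.50) and Pdgfra (1.65, edgeR adjusted p = 0.54) on the upper side, and both receptors also belong to the list of fibroblast and pericyte markers. The 9 markers of that list summed to 13.5 to 27.6 CPM in PyMT TANs, at 19.4 to 76.6 in PyMT-Cxcr2-/- TANs, with 76.2 to 94.8 in BM neutrophils, where Acta2 alone was at 85.9 ± 9.10, and between the TANs 0 of the 9 were past the thresholds by edgeR, with all 9 log2 differences above 0 and a median of 1.65. The part of such cells in the PDGF values was not tested. Against BM neutrophils, where 30.1% and 34.4% of all genes were higher in PyMT and PyMT-Cxcr2-/- TANs, 2 of 3 tested genes of the VEGF axis rose in either type of TANs. These were Nrp2, a co-receptor for VEGF ligands, at 34.9 ± 18.9 CPM in PyMT TANs, 44.4 ± 15.2 in PyMT-Cxcr2-/- TANs, with 0.498 ± 0.214 in BM (log2 fold changes 6.20 and 6.62), and Kdr, at 4.49 ± 3.54, 4.28 ± 1.08 and 0.765 ± 0.352 CPM (2.62 in both). Kdr is also among the 12 endothelial markers, which summed to 25.7 to 55.7 CPM in TANs and to 17.8 to 26.8 in BM. The part of endothelial cells or macrophages in these values was not tested. Of the other PDGF chains, Pdgfc was at 10.8 ± 6.70, 9.60 ± 3.57 and 0.0364 ± 0.0542 CPM and Pdgfa at 6.26 ± 2.91, 7.33 ± 3.07 and 0.0598 ± 0.049. The tested genes of the PDGF list, 3 in PyMT and 4 in PyMT-Cxcr2-/- TANs, each had fewer than 10 counts in every BM library. They thus entered these tests only by being high in the TANs, and nothing is read from the fact that each of them rose.

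In the prokineticin list, Prok1 and Prokr2 were too low to test and Prokr1 could be tested only between the TANs (0.157 ± 0.226 and 0.838 ± 0.696 CPM, edgeR adjusted p = 0.45). Of the inputs to Prok2 in that list, Csf3, its receptor gene Csf3r, Stat3 and Socs3 were tested and none was past the thresholds between the TANs by edgeR. Csf3, which encodes G-CSF, was at 0.996 ± 0.656 CPM in PyMT TANs, 3.16 ± 1.54 in PyMT-Cxcr2-/- TANs, with 0.0295 ± 0.0341 in BM neutrophils, a log2 difference of 1.65 between the TANs (SE 0.54, edgeR adjusted p = 0.15). Stat3, which carries the G-CSF signal, differed by 0.40 (edgeR adjusted p = 0.23) and its feedback inhibitor Socs3 by 0.41 (edgeR adjusted p = 0.30). Against BM neutrophils, Csf3 (at most 2 counts in a BM library), Socs3 and Stat3 rose in both types of TANs, as did 30.1% and 34.4% of all genes, with Socs3 higher by 3.14 and 3.63 on the log2 scale (edgeR adjusted p = 3.3e-07 and 7.9e-10).

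Around Hbegf, none of the 12 tested genes of the EGF receptor list (other ligands, receptors and sheddases) was past the thresholds between the TANs, with a median log2 difference of 0.08. Against BM neutrophils, 6 of 8 tested rose in PyMT TANs and 9 of 11 in PyMT-Cxcr2-/- TANs, where 1 fell, against 30.1% and 34.4% of all genes that were higher. Of those that rose, 2 and 5 had fewer than 10 counts in every BM library and entered only through the TANs. Areg, another ligand, had no count in the 4 BM libraries and was at 3.06 ± 0.830 CPM in PyMT TANs and 3.93 ± 0.864 in PyMT-Cxcr2-/- TANs. Egfr, the receptor, was at 8.07 ± 7.16, 4.84 ± 2.03 and 0.0585 ± 0.0811 CPM in PyMT TANs, PyMT-Cxcr2-/- TANs and BM neutrophils, and Erbb3 at 9.79 ± 6.29, 12.2 ± 5.77 and 0.614 ± 0.191 CPM. Both receptors are known from epithelial cells, and the mammary epithelial markers were at 49.2 to 472.5 CPM in TANs and at most 0.516 CPM in BM, whose part in these values was not tested.

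Hypoxia is the classical inducer of Vegfa. Of the 14 genes of the HIF list, 9 rose and 2 fell in PyMT TANs against BM neutrophils and 8 rose and 1 fell in PyMT-Cxcr2-/- TANs, with median log2 differences of 1.72 and 0.92, against 0.09 over all genes in either comparison, where 53.3% and 59.5% of all genes were past the thresholds and 30.1% and 34.4% were higher. Epas1, which encodes the HIF-2 alpha subunit, rose by 3.36 and 3.33 on the log2 scale (edgeR adjusted p = 0.00011 and 2.1e-06), the glucose transporter Slc2a1 by 2.94 and 3.14 (edgeR adjusted p = 1.1e-07 and 2.0e-10) and the kinase Pdk1 by 3.82 and 3.28 (edgeR adjusted p = 1.4e-06 and 8.2e-08). Ndrg1 fell by 0.96 on the log2 scale in PyMT TANs and fell by 0.71 in PyMT-Cxcr2-/- TANs. Pgk1, the other gene to fall in PyMT TANs, did so by 0.62 (edgeR adjusted p = 0.0086). Between the TANs 0 of 14 were past the thresholds by edgeR. The HIF targets Egln3 (97.5 ± 39.5 CPM in PyMT and 46.7 ± 8.66 in PyMT-Cxcr2-/- TANs) and Ankrd37 (7.74 ± 2.60 and 3.49 ± 0.566) had log2 differences of -1.06 and -1.15, without overlap, with adjusted p-values of 0.055 and 0.070 by edgeR. A link between the genes of this list and Vegfa, and the part of other cells in their levels, were not tested.

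Among other angiogenic growth factors and cytokines, Osm and Tnf separated the TANs in opposite directions. Osm, which encodes oncostatin M, was at 427.9 ± 69.8 CPM in PyMT TANs, 809.1 ± 75.6 in PyMT-Cxcr2-/- TANs, with 469.2 ± 75.1 in BM neutrophils, and rose by 0.92 on the log2 scale in PyMT-Cxcr2-/- TANs (SE 0.15, edgeR adjusted p = 0.015). Tnf was at 155.2 ± 51.1, 65.3 ± 17.0 and 46.5 ± 5.25 CPM and fell by 1.25 on the log2 scale (SE 0.24, edgeR adjusted p = 0.026). These were 2 of 10 tested genes of that list, against 1.98% of all genes tested between the TANs. The calls of pathway genes were not followed over the alternative fits. Adm, which encodes the vessel-active peptide adrenomedullin, was at 5.62 ± 1.95 and 1.62 ± 1.57 CPM in the TANs (log2 difference -1.80, edgeR adjusted p = 0.16). Against BM neutrophils 5 of 9 tested rose and 1 fell in PyMT TANs, and 6 of 10 rose and 1 fell in PyMT-Cxcr2-/- TANs (against 30.1% and 34.4% of all genes higher, with 3 of the risen genes below 10 counts in every BM library in either comparison), with Hgf, a ligand of Met, lower in both (22.6 ± 3.56 and 22.6 ± 2.86 against 46.2 ± 2.17 CPM).

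Of the proteases that open the matrix for vessels, 1 of the 8 tested was past the thresholds between the TANs, against 1.98% of all genes tested. This was Mmp8, the neutrophil collagenase, which was at 237.2 ± 82.0 CPM in PyMT TANs, 834.6 ± 246.7 in PyMT-Cxcr2-/- TANs, with 4907 ± 374.5 in BM neutrophils, and rose by 1.81 on the log2 scale between the TANs (SE 0.27, edgeR adjusted p = 0.011). Mmp9, known for releasing VEGF from the matrix, was at 942.8 ± 331.4, 2127 ± 593.5 and 6620 ± 1305 CPM, with a log2 difference of 1.17 between the TANs (SE 0.28, edgeR adjusted p = 0.062). Against BM neutrophils 5 of 10 rose and 5 fell in PyMT TANs, and 5 rose and 4 fell in PyMT-Cxcr2-/- TANs, where 53.3% and 59.5% of all genes were past the thresholds. Mmp14, a membrane-bound protease, was at 57.6 ± 21.8 and 56.5 ± 21.7 CPM in the TANs against 0.0603 ± 0.0506 in BM, whereas of the granule proteases Elane fell by 5.43 and Ctsg fell by 7.19 on the log2 scale in PyMT TANs (edgeR adjusted p = 0.00058 and 3.2e-05). Mmp14, with fewer than 10 counts in every BM library, entered the tests only through the TANs. It is also made by macrophages, whose summed markers were at 2195 to 5387 CPM in TANs and at 223.1 to 318.7 CPM in BM, and their part in its level was not tested. Mmp9 is itself among the 10 neutrophil markers, whose median log2 difference between the TANs was 1.11. The part of neutrophil content in the Mmp8 and Mmp9 values was not tested.

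Of the 11 angiogenesis inhibitors, 0 were past the thresholds between the TANs, with a median log2 difference of 0.50, against -0.07 over all genes. Against BM neutrophils 6 of 8 tested rose and 2 fell in PyMT TANs, and 7 of 10 rose and 2 fell in PyMT-Cxcr2-/- TANs, where 53.3% and 59.5% of all genes were past the thresholds. Of those that rose, 3 and 4 had fewer than 10 counts in every BM library and entered only through the TANs. Thbs1, which encodes thrombospondin 1, was at 120.5 ± 62.5 CPM in PyMT TANs, 273.4 ± 58.0 in PyMT-Cxcr2-/- TANs, with 2668 ± 612.7 in BM neutrophils, and fell by 4.40 in PyMT TANs and fell by 3.15 in PyMT-Cxcr2-/- TANs on the log2 scale (edgeR adjusted p = 3.2e-06 and 3.3e-08). Vash1, an inhibitor known from endothelial cells, had no count in BM and was at 6.30 ± 3.48 and 7.01 ± 2.25 CPM in the TANs. Of the pathway genes named here, Pdgfa, Pdgfc, Pdgfra, Prok1, Stat3, Ankrd37, Slc2a1, Ndrg1 and Thbs1 share exonic bases with a gene on the opposite strand. Since the strand setting of the counting is not given in the sources used here, their levels are uncertain to that extent.

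The genes whose log2 CPM over the 12 libraries were most like those of each factor were named by Pearson's r, as a description across libraries that share groups and depth. For Vegfa these were Pfkl (r = 0.99), a glycolytic phosphofructokinase, Ddit4 (0.99) and Nfil3 (0.99), and 7.98% of 18966 genes had r over 0.9. For Pdgfb they were Tnfrsf11a, Axl and Pmepa1 (0.998, 0.997 and 0.997, with 13.2% of genes over 0.9), and for Hbegf Creb5, Scube1 and Dock4 (each 0.99, with 13.8% over 0.9). Prok2 had few such genes, with 0.0685% over 0.9, led by Snx18, Dhx38 and Plscr1 (0.95, 0.95 and 0.94). Flt1 was most like Adamts4 (0.92), Irgm1 (0.92) and Acsl4 (0.91), and Vegfb most like Tgfbr3 (0.89). When each library was taken as its deviation from the mean of its group, the genes most like Prok2 were Atp6v0b, Gapdh and Ggt1 (each 0.96), and those most like Pdgfb were Pmepa1, Tnfrsf11a and Dnajc27 (0.94, 0.94 and 0.93). Pmepa1 and Tnfrsf11a were thus named for Pdgfb by both measures, which come from the same libraries and are not independent.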

How the data were processed

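Neutrophils were measured in 12 RNA-seq libraries, 4 per group. Directional libraries were made by the authors after removal of ribosomal RNA and read as paired ends. Reads were checked with FastQC, trimmed and aligned with STAR (mm10), and HTSeq gave the deposited values, which are raw counts for each gene without normalization. The annotation release and the strand setting are not given in the sources used here. HTSeq's class of reads on no feature, 32.0% to 52.5% of the totals, was left out of library sizes. Totals on genes were between 25032704 and 51351569 counts, and intervals and floors cover counting error only.

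Of the 55335 gene IDs, 55154 were matched to GENCODE M21 without the version number, and all 8 factors were found. edgeR 4.0.16 in R 4.3.3 was run for each comparison on its 2 groups, with TMM factors, filterByExpr at its defaults, robust estimation and the quasi-likelihood test, and Benjamini-Hochberg adjustment over all genes tested. The thresholds were an adjusted p below 0.05 together with a 1.5-fold difference. The standard error is the log2 fold change divided by the square root of F. Levels per kilobase use the union of exons. Alternatives were RLE factors, library totals, no or a stricter filter (1 CPM in 4 libraries), DESeq2 1.42.0, no robust estimation, a fit over the 12 libraries, a block for the replicate number, an adjustment for GC content and gene length, both together, and leaving out each mouse. The ratios to marker lists were added after the data had been seen. The procedure was tested on simulated counts.

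Replicate numbers come from the sample titles, and same-numbered mice are different animals. The deviations of same-numbered libraries from their group means had a mean correlation of -0.0414, so the numbers were not taken as pairs. Replicates of a group differed by more than sampling noise. Upstream sequences came from RefSeq (GRCm38.p6), where Hbegf and Pdgfb had no entry. The factors and the lists of pathway and marker genes were chosen with earlier results of these data known. Pathway genes are named when they were among the 3 largest log2 fold changes past the thresholds in each direction of a comparison, or among the 2 largest that were not past them between the TANs. For likeness, the genes with the highest r were taken.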

Additional observations from a re-analysis of the deposited data

Results flagged for a closer look

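In 3 of the 24 groups of 4 libraries examined, 1 library stood far from the other 3 (a gap to its neighbour, as a share of the range, above Dixon's 95% limit), where chance gives about 1 in 20. Vegfb was highest in BM replicate 1, at 2.97 CPM, with a gap of 0.850 of the range, against 1.95 to 2.10 CPM in the other BM libraries. Vegfc was highest in PyMT replicate 4, at 0.229 CPM, with no count in the other PyMT libraries, and Pgf was highest in BM replicate 1, at 0.0600 CPM (2 counts), with no count in the other BM libraries. For Vegfc and Pgf the gap is thus the whole range by construction, and the rate of 1 in 20 does not apply to them.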

How the results depend on the processing

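The number of genes past the thresholds between the TANs depended strongly on the settings, with 365 in the reported fit, 594 without a filter, 1035 with DESeq2, 886 with 12 libraries in one fit, 13 with the replicate number as a block, 76 after adjusting for GC content and gene length, 31 with both, and 23 to 513 with a mouse left out (23 without PyMT replicate 2). Of the 8 factors, 1 was past them as reported, 2 with DESeq2 and with 12 libraries in one fit (Prok2 and Hbegf), 0 with the replicate block, with the GC content and gene length adjustment and with both, and 0 to 2 with a mouse left out. The block, on numbers that do not pair the mice, gave Prok2 a log2 difference of 1.63 with an adjusted p of 0.17 (edgeR), and 1.51 with 0.36 when combined with the GC content and gene length adjustment. Against BM, the counts of factors stayed at 4 or 5 in PyMT TANs and at 5 to 7 in PyMT-Cxcr2-/- TANs over the 17 alternatives. The GC content and gene length adjustment moved the share of higher genes among those past the thresholds from 69.9% to 51.3% between the TANs, from 56.4% to 45.8% in PyMT TANs against BM and from 57.9% to 39.6% in PyMT-Cxcr2-/- TANs against BM, and in these 3 comparisons it moved the median log2 difference of all genes from -0.07 to -0.16, from 0.09 to -0.15 and from 0.09 to -0.40. Differences without a call changed sign for Vegfa between the TANs (0.0072 with RLE factors, 0.011 without a filter, 0.0095 with DESeq2, and -0.15 to 0.18 with a mouse left out), Pdgfb (-0.0027 with the GC content and gene length adjustment, -0.073 to 0.41 with a mouse left out), Pgf (-0.12 to 1.41 with a mouse left out) and Vegfb in PyMT TANs against BM (-0.26 to 0.15 with a mouse left out). Scaled by library totals, Prok2 and Vegfa in BM were at 44.4 and 62.3 CPM. Apart from the constructions themselves, the cause of these changes was not tested.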
